A study of Mus musculus with 2 samples.

Results

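Trp63, Tfap2a, Gata3, Klf4, Cebpa, Cebpb, Ovol1, Grhl1, Grhl2 and Grhl3 encode transcription factors that establish the epidermis or drive its differentiation. All array probes that carry one of these 10 names, out of 34820 names in all, were taken, which gave 15 probes. There were 4 probes for Trp63, 2 each for Grhl2 and Tfap2a, and 1 for each of the other genes.

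The RNA came from epidermis of FVB/N mouse pups at postnatal day 4.5, and was compared in 2 littermate pairs, each on 1 two-colour microarray. Both pups of a pair carried K14-rtTA, a transgene in which the keratin 14 promoter, active in basal keratinocytes, drives a doxycycline-dependent activator, and both had 12 h of doxycycline (Dox). The SOX11-induced pup also carried TRE-Sox11-FLAG, from which this activator switches on tagged SOX11, while the control pup did not. According to the study's methods the littermates were of the same sex, and dorsal epidermis was separated from dermis with dispase. Sheets of all epidermal layers were therefore measured, not the keratin 14 positive cells alone. In such bulk RNA, fewer cells of a type and less RNA per cell cannot be told apart. On both arrays the control carried the green dye Cy3 and the SOX11-induced sample the red dye Cy5. An effect of dye and an effect of genotype therefore cannot be told apart for a single probe. A colour swap is described in the study's methods and is not shown in the labels.

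Values are log2 ratios of Cy5 over Cy3 after background correction and smoothing against brightness (loess), so a positive ratio means a brighter probe in SOX11-induced epidermis. Each mean is given with the SD of the 2 pairs. The 95% intervals and adjusted p-values are from limma, which borrowed a prior SD of 0.223 with 8.34 degrees of freedom from all probes. With 2 pairs, precision rests largely on this prior. Between 36.3% and 41.5% of the 55676 tested probes were above background in a sample, and all 15 probes of the 10 factors were above background and below saturation in all 4 samples. Neither of the 2 Sox11 probes was above background in any sample, so they could not check the labels. Keratinocyte markers were above background for 8 of 8 genes. The same held for 18 of 18 hair follicle, 8 of 8 melanocyte, 7 of 7 sebocyte and 11 of 12 leukocyte markers. Detection alone therefore does not tell keratinocytes from these other cells. Hair follicle markers set the pairs apart. All 18 of these markers were higher in the SOX11-induced sample of pair 1 (median log2 ratio 1.87), whereas 1 of 18 was higher in pair 2 (median -0.37).

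In the epidermis, a basal layer of dividing keratinocytes supplies suprabasal cells that stop dividing, change their keratins and form a water barrier. p63, the product of Trp63, is the master regulator of this lineage, and AP-2 and GATA factors act beside it in basal cells and skin appendages. KLF4, C/EBP and OVOL1 proteins act as cells leave the basal layer, and grainyhead-like (GRHL) proteins control junctions, wound closure and barrier genes.

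Most of the 10 factors had ratios near zero after 12 h of SOX11 induction. Gata3 fell to 0.590 of the control level, and it was the only one of the 10 whose probe passed an adjusted p of 0.05. Grhl3 and 1 of the 4 Trp63 probes had positive log2 ratios in both pairs, with means of 0.54 and 0.53, and Cebpa had negative ones with a mean of -0.41, but these did not pass. At the threshold worded in the study's methods, an adjusted p under 0.05 and a mean log2 ratio past 1.5, 0 of 15 probes were called by limma, where 0.453% of all probes and 1.16% of probes above background were called. At an adjusted p under 0.05 alone, 1 of 15 passed, 6.67% of the probes, beside 4.39% of all probes and 9.99% of those above background. A linear fold past 1.5 with the same adjusted p, as the study's legends word it, also gave 1 of 15, Gata3, beside 9.99% of probes above background. At an unadjusted p under 0.05, 5 of 15 passed, beside 31.2% of probes above background. The share of the factors' probes that passed was thus near or below the share among probes above background under each rule. Median centring of the arrays in place of loess raised the median of all probes above background from 0.04 to 0.51, so its values are given below relative to that median where a sign changed. Under it 9 of 15 probes passed an adjusted p of 0.05, and all 9 had positive ratios. Of all probes, dim ones included, 33.2% passed. The share among probes above background was not taken under this setting, so the 9 cannot be read as an excess. The 9 were Trp63 probes 2 and 3, the first Tfap2a probe, Klf4, Cebpb, Ovol1, Grhl1, the second Grhl2 probe and Grhl3. Relative to the median, these 9 ranged from 0.05 for Trp63 probe 2 to 0.71 for Grhl3.

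The ratios of the factors were also small in size. The median absolute log2 ratio of the 15 probes was 0.14, compared with 0.22 for all probes above background, and the signed medians were 0.02 and 0.04. The ratio had the same sign in both pairs for 9 of 15 probes (60%), 4 of them higher and 5 lower, beside 74.1% of probes above background. With loess, no interval of a probe reached past -1.10 or 0.90, so log2 1.5 lay outside every interval of that fit. A zero change lay outside the intervals of 5 probes, which were for Gata3, Grhl3, Cebpa, Trp63 and Grhl2. These intervals do not cover the choice of normalisation. Under median centring, for which intervals are not given, the means of Grhl3 and Trp63 probe 3 were 1.21 and 1.17.

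**Figure D1:**
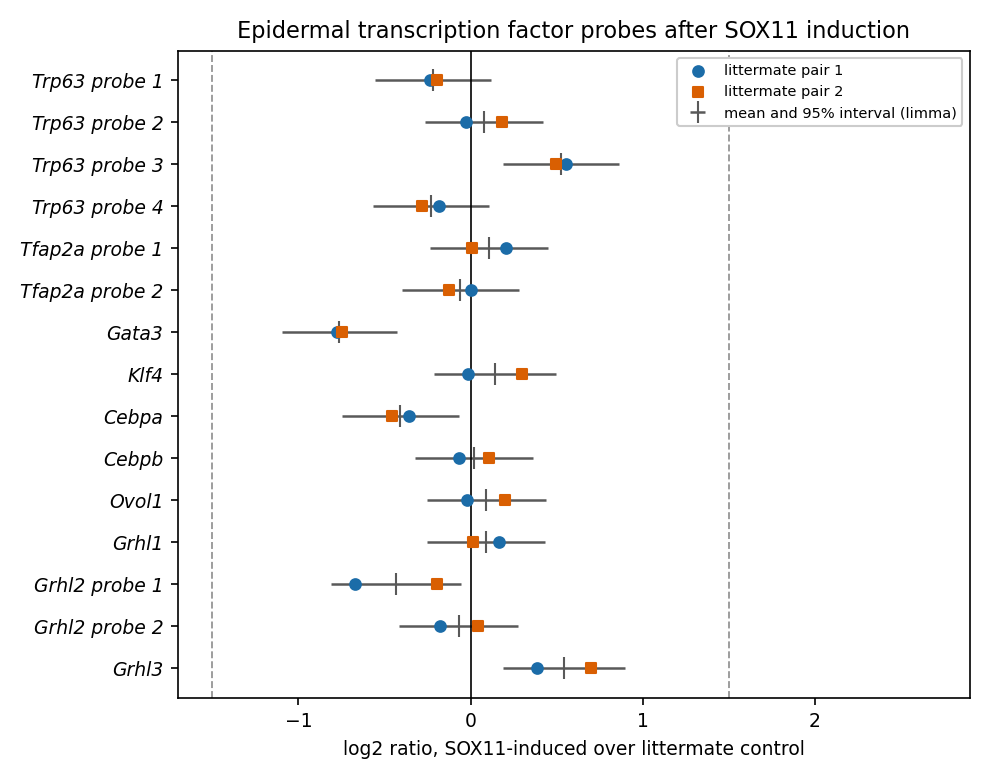
Log2 ratio of SOX11-induced over littermate control epidermis (x axis) for each of the 15 probes (rows), with pair 1 as circles, pair 2 as squares, and the limma mean with its 95% interval as a tick and bar. Dashed lines mark log2 ratios of 1.5 in either direction. Gata3 lies farthest to the left at -0.76, Grhl3 and Trp63 probe 3 lie to the right at 0.54 and 0.53, and no interval reaches the dashed lines.

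Trp63 was examined first, as the master regulator of the lineage. Its probes lie on chromosome 16 (plus strand, mouse build mm9) and are numbered 1 to 4 in the direction of transcription, at 25821344-25821403, 25867718-25867777, 25871159-25871218 and 25892012-25892071. Exon and UTR annotation of that build was not used here. The sequences are shown because the probes gave different ratios, and because probe 3 holds an uninterrupted run of 6 CAG triplets, set in capitals. Probe 3 is given whole, and for the others the first 30 of 60 bases are given.
Trp63 probe 1: acttaccatgtgtcctggctatagcttttc
Trp63 probe 2: cagtcccatataccatgcacttaactcttt
Trp63 probe 3: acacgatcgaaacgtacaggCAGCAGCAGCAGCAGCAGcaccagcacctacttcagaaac
Trp63 probe 4: caaaaggtactttcttatagacatgatact

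Trp63 probe 3 stood above the other probes of the gene. Its log2 brightness was 10.93 in the control and 11.49 in the SOX11-induced sample of pair 1, and 10.49 and 10.99 in pair 2. Both SOX11-induced samples were thus brighter than both controls. The log2 ratios were 0.56 and 0.50, with a mean of 0.53 ± 0.0420 (SD, n = 2, 95% interval 0.19 to 0.86, limma adjusted p = 0.0840). The change missed the threshold, although its interval excluded zero. It passed with an offset of 50 (adjusted p = 0.00989), an intensity trend (adjusted p = 0.0136) and median centring (adjusted p = 0.000512).

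The probes at either end of Trp63 leaned the other way. Probe 1 had log2 brightness of 11.37 (control) and 11.13 (SOX11-induced) in pair 1, and 11.07 and 10.88 in pair 2. The control of pair 2 was dimmer than the SOX11-induced sample of pair 1, so the groups overlapped. Log2 ratios were -0.24 and -0.20, with a mean of -0.22 ± 0.0286 (adjusted p = 0.442). Probe 4 had log2 brightness of 11.20 and 11.02 in pair 1, and 11.25 and 10.97 in pair 2, with no overlap between groups. Its mean was -0.23 ± 0.0710 (adjusted p = 0.415). Probe 2, the dimmest, had ratios of -0.03 and 0.18, which differ in sign (mean 0.08 ± 0.147, adjusted p = 0.812). Under median centring the means of probes 1 and 4 were 0.43 and 0.41, or -0.08 and -0.09 relative to the median of probes above background.

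The means of the 4 Trp63 probes spanned 0.76 on the log2 scale. Among the 3990 genes with several probes above background the median span was 0.20, and 147 of them (3.68%) had a span at least as wide. Of the 149 genes with as many probes as Trp63, 12 (8.05%) did. Probe 3 exceeded the mean of the other 3 probes by 0.70 in pair 1 and by 0.60 in pair 2. This difference is within an array, so it is not set by the overall scaling of the array. The probes with a run of 5 or more CAG triplets, a search made after the ratios were seen, numbered 6 of 55676 (0.0108%). All 6, which include Trp63 probe 3 itself at 0.53, were higher in both pairs, as were 8927 of the 21782 probes above background. The 6 ranged from 0.32 for BC051142 to 0.88 for Pif1, with a median of 0.57. Probes with the complementary run of 5 or more CTG triplets numbered 5, and these were also higher in both pairs, with a median of 0.15. The array lists each of the 4 Trp63 probes under a different transcript record, so they need not measure the same transcripts. The parts of the repeat and of the transcripts in the ratio of probe 3 were not tested.

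**Figure D2:**
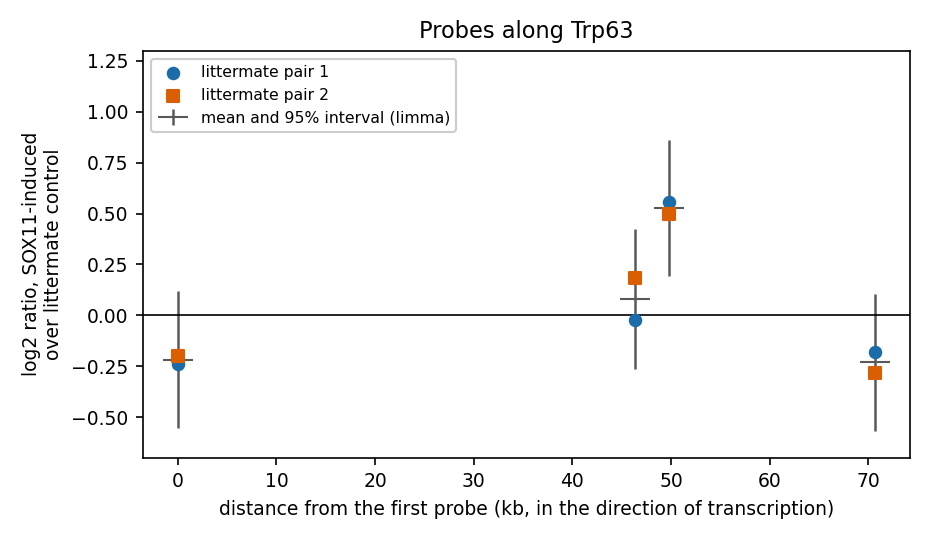
Log2 ratio of SOX11-induced over control epidermis (y axis) for the 4 Trp63 probes, placed by distance along the gene from the first probe in kb (x axis), with pair 1 as circles, pair 2 as squares and the limma mean with its 95% interval. The third probe lies at 0.53 in the mean, while the first and last lie at -0.22 and -0.23.

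Gata3, a zinc-finger factor of the epidermis and hair follicle that also directs T-cell development, was lower in both pairs. Its probe lies on chromosome 2 (minus strand, mm9) at 9779551-9779610, and its first 30 of 60 bases are given because it is the probe that passed.
Gata3 probe: ttaaggaatatagggggattaaagtatgga

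The Gata3 probe had log2 brightness of 12.13 in the control and 11.36 in the SOX11-induced sample of pair 1. In pair 2 these were 11.94 and 11.19. Both SOX11-induced samples were dimmer than both controls, and the ratios were close to each other at -0.78 and -0.75. The mean was -0.76 ± 0.0192 (SD, n = 2, 95% interval -1.10 to -0.43, limma adjusted p = 0.0232). Among probes above background, 3.21% were lower at this threshold.

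The Gata3 call depended on processing. The mean was -0.68 with median spot brightness (adjusted p = 0.0575) and with the authors' series table (adjusted p = 0.0555), -0.73 with the scanner's processed signals (adjusted p = 0.244), and -0.10 with median centring (adjusted p = 0.642). Relative to the median of probes above background, Gata3 was at -0.61 under median centring and at -0.80 under loess. When the channels were treated as unpaired samples, the adjusted p was 0.104. With an offset of 50 and with an intensity trend the adjusted p-values were 0.00274 and 0.000738.

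Since Gata3 is also made by T cells and by hair follicle cells, markers of other cells were set beside it. None of the 12 leukocyte markers passed an adjusted p of 0.05 in limma, 1 had an unadjusted p under 0.05, and their median log2 ratio was -0.26, with 11 of 12 lower in pair 1 and 9 of 12 lower in pair 2. The log2 of their summed brightness was 15.27 in the control and 14.99 in the SOX11-induced sample of pair 1, and 13.81 and 13.58 in pair 2, and 1 of the 12, Lyz2, was not above background. The T-cell receptor components Cd3e and Cd3g had means of -0.08 and -0.28. Thy1, a surface protein of mouse T cells that was listed here under fibroblasts, was at -1.37 in pair 1 and -1.22 in pair 2 (mean log2 ratio -1.30, adjusted p = 0.00179). Thy1 was named after its value was seen. The fibroblast list that holds it had a median of 0.37. Of its 10 genes, 1 was higher and 2 were lower at an adjusted p under 0.05. The part of leukocytes in the Gata3 ratio was not tested. Hair follicle markers moved in opposite directions in the pairs, and the log2 of their summed brightness was 16.86 and 18.77 in pair 1 and 19.48 and 19.13 in pair 2. Krt15, a keratin of basal and follicle cells that was listed here under keratinocytes, was named after its value was seen. It was at -1.08 in pair 1 and -0.98 in pair 2 (mean log2 ratio -1.03, limma adjusted p = 0.00573). The median of the 8 keratinocyte markers was 0.24, with 5 of 8 higher in each pair. The part of follicle cells in the Gata3 ratio was not tested.

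Tfap2a encodes AP-2 alpha, which binds regulatory regions of keratin and other epidermal genes. Its probe at 40811044-40811103 on chromosome 13 had log2 brightness of 11.17 (control) and 11.38 (SOX11-induced) in pair 1, and 11.59 and 11.60 in pair 2. Samples differed more between pairs than within them. The mean log2 ratio was 0.11 ± 0.142 (95% interval -0.24 to 0.45, adjusted p = 0.732). The dimmer probe at 40829040-40829099 had a mean of -0.06 ± 0.0900 (95% interval -0.40 to 0.28, adjusted p = 0.860), and 0.41 under median centring, or -0.10 relative to the median. The first probe passed under median centring (0.76, adjusted p = 0.00509). The span between both probes was 0.17, below the median span of genes with several probes.

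Klf4, a zinc-finger factor needed for the skin barrier, was measured at 55540167-55540226 on chromosome 4. Log2 brightness was 13.61 in the control and 13.60 in the SOX11-induced sample of pair 1, and 13.51 and 13.81 in pair 2. The pair 1 samples were alike and those of pair 2 were not, with ratios of -0.01 and 0.30. The mean was 0.14 ± 0.219, with an interval that spans zero (95% interval -0.21 to 0.50, adjusted p = 0.653). Under median centring it was 0.88, or 0.37 relative to the median (adjusted p = 0.00365).

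Cebpa and Cebpb encode C/EBP alpha and C/EBP beta, which limit division and promote differentiation as keratinocytes leave the basal layer. The Cebpa probe, at 35906517-35906576 on chromosome 7, had log2 brightness of 11.07 (control) and 10.71 (SOX11-induced) in pair 1, and 11.18 and 10.72 in pair 2. Both SOX11-induced samples were dimmer than both controls. The log2 ratios were -0.36 and -0.46, with a mean of -0.41 ± 0.0678 (95% interval -0.74 to -0.07, limma adjusted p = 0.163). The mean was 0.23 under median centring, or -0.28 relative to the median, and it passed with an offset of 50 (-0.38, adjusted p = 0.0394). Cebpb, at 167515828-167515887 on chromosome 2, had the mean closest to zero of the 15 probes. Its log2 brightness was 12.53 and 12.47 in pair 1, and 12.45 and 12.55 in pair 2. The groups overlapped, and the mean ratio was 0.02 ± 0.123 (95% interval -0.32 to 0.36, adjusted p = 0.958). Under median centring it was 0.71, or 0.21 relative to the median (adjusted p = 0.00819). Whether Cebpa and Cebpb differed in response was not tested.

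Ovol1, a zinc-finger repressor that acts in cells that stop dividing, was measured at 5549209-5549268 on chromosome 19. Its log2 brightness was 9.80 (control) and 9.78 (SOX11-induced) in pair 1, and 10.01 and 10.21 in pair 2. The pairs differed in level and in the sign of the ratio, at -0.02 and 0.20. The mean was 0.09 ± 0.158 (95% interval -0.26 to 0.44, adjusted p = 0.782), and it was -0.03 with processed signals. Under median centring it was 0.70, or 0.19 relative to the median (adjusted p = 0.00941).

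The grainyhead-like genes did not have a shared direction. Grhl3, which acts in barrier formation, wound closure and control of transglutaminase genes, was brighter in both SOX11-induced samples. Its probe, at 135097991-135098050 on chromosome 4, had log2 brightness of 11.65 (control) and 12.04 (SOX11-induced) in pair 1, and 11.67 and 12.37 in pair 2. Both controls were almost level, and both SOX11-induced samples lay above them. The log2 ratios were 0.39 and 0.70, a mean of 0.54 ± 0.219 (95% interval 0.19 to 0.90, limma adjusted p = 0.0896). It passed with an offset of 50 (adjusted p = 0.0191), with an intensity trend (adjusted p = 0.0107) and with median centring (mean 1.21, adjusted p = 0.000630).

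Grhl1, which controls desmosomal cadherins, was measured at 25302095-25302154 on chromosome 12. Its log2 brightness was 12.23 and 12.40 in pair 1, and 12.53 and 12.55 in pair 2. Again the pairs differed more than the groups, and the mean ratio was 0.09 ± 0.109 (95% interval -0.25 to 0.43, adjusted p = 0.778). Under median centring it was 0.78, or 0.27 relative to the median (adjusted p = 0.00453). Grhl2, which controls cadherin and claudin genes of epithelial junctions, has probes on chromosome 15 at 37239426-37239485 and 37293139-37293198. The first was the dimmest of the 15 probes, with log2 brightness of 7.40 and 6.73 in pair 1, and 7.07 and 6.87 in pair 2. The groups did not overlap, but the ratios of -0.67 and -0.19 differed in size, and the mean was -0.43 ± 0.337 (adjusted p = 0.184). The second probe was brighter, and its ratios were -0.18 and 0.04, which differ in sign (mean -0.07 ± 0.157, adjusted p = 0.838). That mean was 0.57 under median centring, or 0.06 relative to the median (adjusted p = 0.0234).

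**Figure D3:**
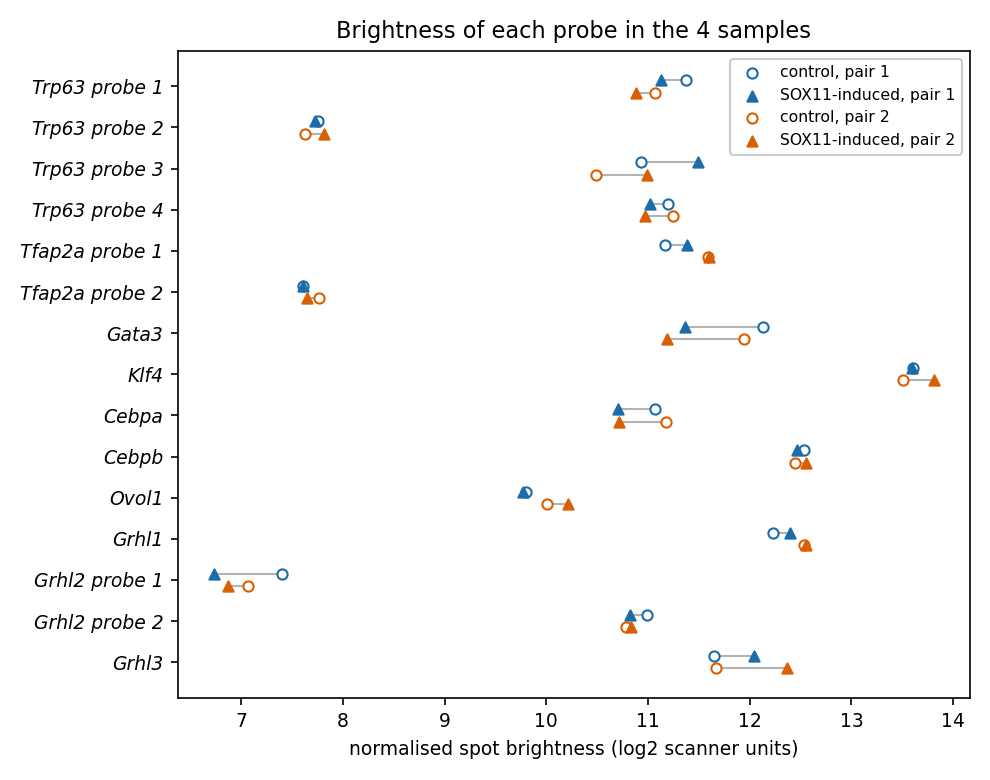
Normalised spot brightness in log2 scanner units (x axis) of each probe (rows) in the 4 samples, with open circles for controls, triangles for SOX11-induced samples, and a line joining the samples of a pair. Levels are not comparable between probes. Control and SOX11-induced samples do not overlap for Gata3, Cebpa, Grhl3, Trp63 probes 3 and 4 and Grhl2 probe 1, which are 6 of 15 probes.

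Across the 10 factors, brightness of the groups did not overlap for 6 of 15 probes (40%), beside 54.1% of all probes above background. Promoters were searched for ACAAAG and ACAATG, cores that SOX proteins bind, on both strands of windows from 250 bases before to 50 bases after each start (RefSeq, GRCm38.p6). The table held 9 such windows for 7 of the 10 genes, with none listed under Trp63, Grhl2 or Ovol1. Neither motif was found in any of the 9, while 18.7% and 12.6% of 32851 promoters held them. The study mapped SOX11 binding by ChIP-seq in cultured keratinocytes and reported sites at promoters and putative enhancers. Those sites and motifs outside the windows were not analysed here, so whether SOX11 binds near these genes was not tested.

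**Figure D4:**
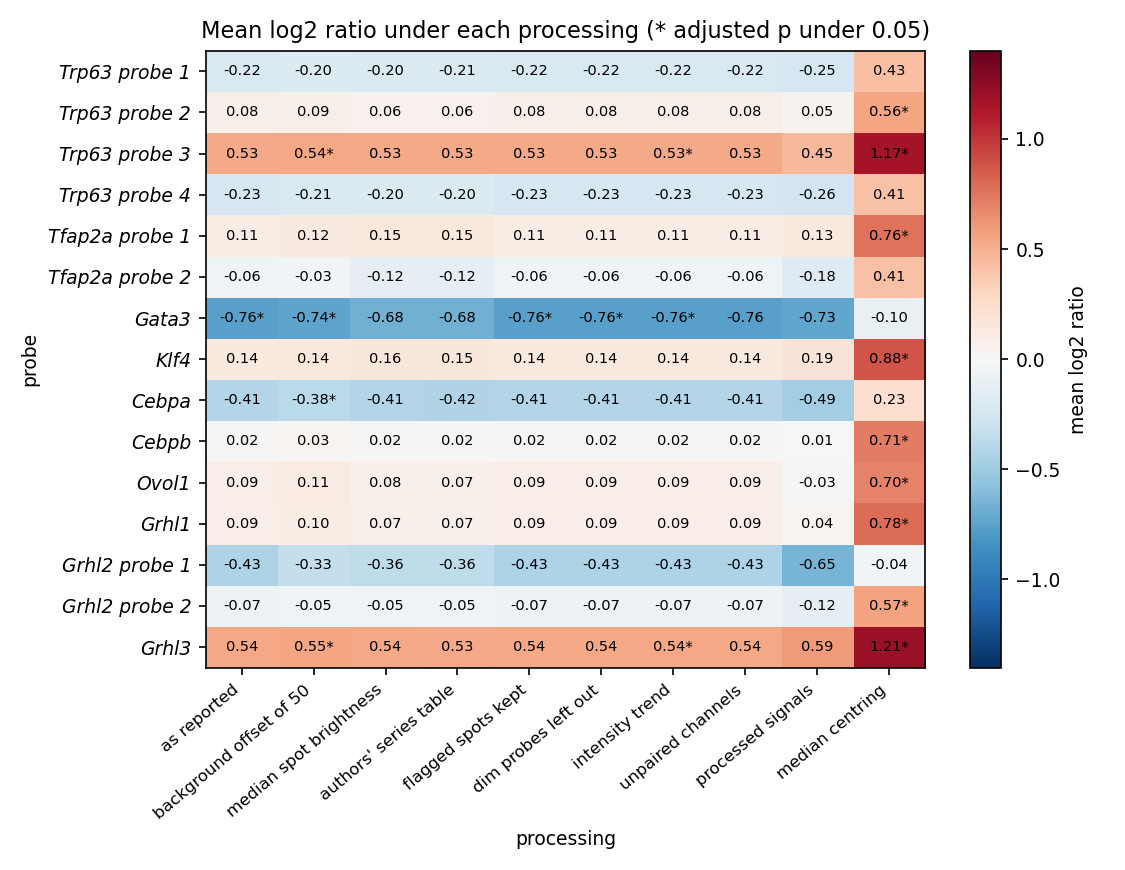
Mean log2 ratio of each probe (rows) under the reported processing and 9 alternatives (columns), with red for higher and blue for lower in SOX11-induced epidermis and a star for an adjusted p under 0.05. Gata3 is negative in every column, from -0.76 to -0.10, and median centring shifts every probe upward.

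Relatives of the factors from the same gene families were then examined, with the brightest probe for each gene. Of 36 relatives measured, 25 were above background. Tfap2e, an AP-2 relative, had the largest change, with log2 ratios of -1.36 and -1.71 and a mean of -1.53 ± 0.242 (limma adjusted p = 0.000941), and it was the 1 relative of 36 called at log2 1.5, beside 0.65% of all gene names. Its mean was short of log2 1.5 with an offset of 50 (-1.32) and with median centring (-1.04), as was pair 1 alone, and its adjusted p was 0.244 with processed signals. Tfap2c, the AP-2 gamma gene of basal keratinocytes, had ratios of -0.65 and -0.60 (mean -0.63, adjusted p = 0.0492). Its mean was 0.0041 under median centring, or -0.50 relative to the median, and the call was kept only with an offset of 50, dim probes left out or an intensity trend. Among Kruppel-like factors, Klf9 (-1.06, adjusted p = 0.00499), Klf2 (-0.98, adjusted p = 0.0160) and Klf16 (-0.69, adjusted p = 0.0380) fell and Klf7 (0.66, adjusted p = 0.0416) rose. Klf9 and Klf2 were dim, with log2 brightness from 5.72 to 6.99, and their size of change depended on the offset. Their means were -0.75 and -0.69 with an offset of 50. With processed signals they were -1.76 and -1.56 and did not pass (limma adjusted p = 0.244 and 0.288). Klf16 was at -0.27 under median centring (adjusted p = 0.211), and Klf7 did not pass with median spot brightness or the series table (adjusted p = 0.0734 and 0.0724). With unpaired channels Klf2, Klf16 and Klf7 did not pass (adjusted p = 0.0707, 0.130 and 0.120). In all, 5 of 36 were lower and 1 was higher at an adjusted p under 0.05, and 30 did not pass. Over all 31981 gene names measured in this way, 1.91% were lower and 3.66% higher. At an unadjusted p under 0.05 in limma, 9 of 36 relatives were lower and 3 higher, beside 10.5% and 12.7% of all gene names. The median of the relatives was 0.00, as was that of all gene names.

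Several close relatives did not pass. Klf5, which is made in dividing keratinocytes, had ratios of -0.92 and -0.44 (mean -0.68, adjusted p = 0.0565), and passed with an offset of 50 or an intensity trend (adjusted p = 0.0196 and 0.00517). Ovol2, which acts with Ovol1 to keep the epithelial state, had a mean of 0.23 (adjusted p = 0.412), and 0.80 under median centring, or 0.29 relative to the median (adjusted p = 0.00414). Cebpd had a mean of -0.42 (adjusted p = 0.151), and 0.15 under median centring, or -0.36 relative to the median. It passed with an offset of 50 (adjusted p = 0.0439).

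Other regulators of keratinocyte differentiation were listed apart, and 21 of 22 were above background. The POU factors Pou3f1 and Pou2f3, which act in differentiating keratinocytes, fell by 1.12 and 0.84 on the log2 scale (adjusted p = 0.00478 and 0.0177). Zfp36l2, an RNA-binding protein that promotes mRNA decay, fell by 1.03 (adjusted p = 0.0103). Nfe2l2, the NRF2 gene of the oxidative stress response, rose by 0.76 (adjusted p = 0.0245). These were the 4 of 22 that passed, 3 lower and 1 higher, beside 1.91% and 3.66% of all gene names. Among probes above background the shares were 3.21% and 6.78%. At an unadjusted p under 0.05 in limma, 9 of 22 were lower and 3 higher. The shares there were 10.5% and 12.7% of all gene names, and 12.3% and 18.9% of probes above background. The median of the list was -0.12. Under median centring Pou3f1, Pou2f3 and Zfp36l2 were at -0.45, -0.37 and -0.39 and did not pass (adjusted p = 0.0614, 0.106 and 0.0950). None of the 4 passed with unpaired channels in limma, where the adjusted p-values were between 0.0596 and 0.138 for the 3 that fell and 0.0832 for Nfe2l2. Among the others, Zfp750 (-0.27, adjusted p = 0.333), a target of p63, was at 0.37 under median centring, or -0.13 relative to the median. Prdm1, the BLIMP1 gene of terminal differentiation, had a mean of 0.22 (adjusted p = 0.441), and 0.84 under median centring, or 0.34 relative to the median (adjusted p = 0.00306).

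Genes linked to p63 in basal cells were set beside Trp63 itself. Of 20 measured, 3 were lower, 1 was higher and 16 did not pass, and the median was -0.31. Among all gene names 1.91% were lower and 3.66% higher, and among probes above background 3.21% and 6.78%. At an unadjusted p under 0.05 in limma, 8 of 20 were lower and 2 higher. The shares there were 10.5% and 12.7% of all gene names, and 12.3% and 18.9% of probes above background. Fras1, a basement membrane protein, was lower, at -1.98 in pair 1 and -0.88 in pair 2 (mean -1.43, adjusted p = 0.0101). Jag2, a Notch ligand, had -0.92 and -1.77 (mean -1.35, adjusted p = 0.00686). Col17a1, a hemidesmosome collagen, had -1.32 and -0.88 (mean -1.10, adjusted p = 0.00669). Itgb1, the integrin beta 1 gene, went the other way at 0.90 (adjusted p = 0.0119). A second Itgb1 probe had 0.51 (adjusted p = 0.0910). The basal keratins Krt5 and Krt14 had means of -0.44 and -0.31 (adjusted p = 0.165 and 0.302). Under median centring these were 0.43 and 0.51, or -0.08 and 0.0039 relative to the median. Krt5 passed with an offset of 50 (-0.46, adjusted p = 0.0405) and an intensity trend (adjusted p = 0.00605). Col17a1 did not pass under median centring (-0.47, adjusted p = 0.0615), and with unpaired channels Fras1, Jag2 and Itgb1 did not (adjusted p = 0.0726, 0.124 and 0.0682).

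Differentiation genes linked to KLF4, C/EBP and GRHL factors, grouped here as late genes, had a median of 0.19. Beside barrier genes the group held the cadherin gene Cdh1 and the suprabasal keratins Krt1 and Krt10. The study describes KRT1 as an early marker, so the median is not one of late genes alone. Of 26 measured, 24 were above background. In limma 1 was higher, 0 were lower and 25 did not pass, beside 3.66% higher and 1.91% lower of all gene names. At an unadjusted p under 0.05 the counts were 9 higher and 2 lower. The shares there were 12.7% and 10.5% of all gene names, and 18.9% and 12.3% of probes above background. Sprr1b, a small proline-rich protein of the cornified envelope, was the one that passed, with ratios of 2.13 and 0.55 (mean 1.34 ± 1.12, adjusted p = 0.0383). It did not pass when dim probes were left out (adjusted p = 0.0855) or with unpaired channels (adjusted p = 0.154). The suprabasal keratins Krt1 and Krt10 had means of 0.62 and 0.58 (adjusted p = 0.0784 and 0.119). Lor, Ivl and Tgm1, which encode the envelope proteins loricrin and involucrin and the enzyme that joins them, had means of 0.50, 0.37 and 0.16 (adjusted p = 0.0986, 0.199 and 0.580). Under median centring all 5 of these genes passed, at 1.46 for Krt1, 1.44 for Krt10, 1.38 for Lor, 1.07 for Ivl and 0.82 for Tgm1, or from 0.32 to 0.96 relative to the median. Krt1, Lor and Ivl also passed with an offset of 50 and with an intensity trend, and Krt10 with an intensity trend. Krt1, Krt10 and Lor were bright, with normalised log2 brightness from 15.76 to 17.56. Saturation is given only for the probes of the 10 factors. With processed signals the means of Krt1, Krt10 and Lor were 0.49, 0.55 and 0.27. Dsg1a, a desmosomal cadherin, had -0.36 (adjusted p = 0.250), and 0.29 under median centring, or -0.22 relative to the median. No tested probe carried the name Flg.

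**Figure D5:**
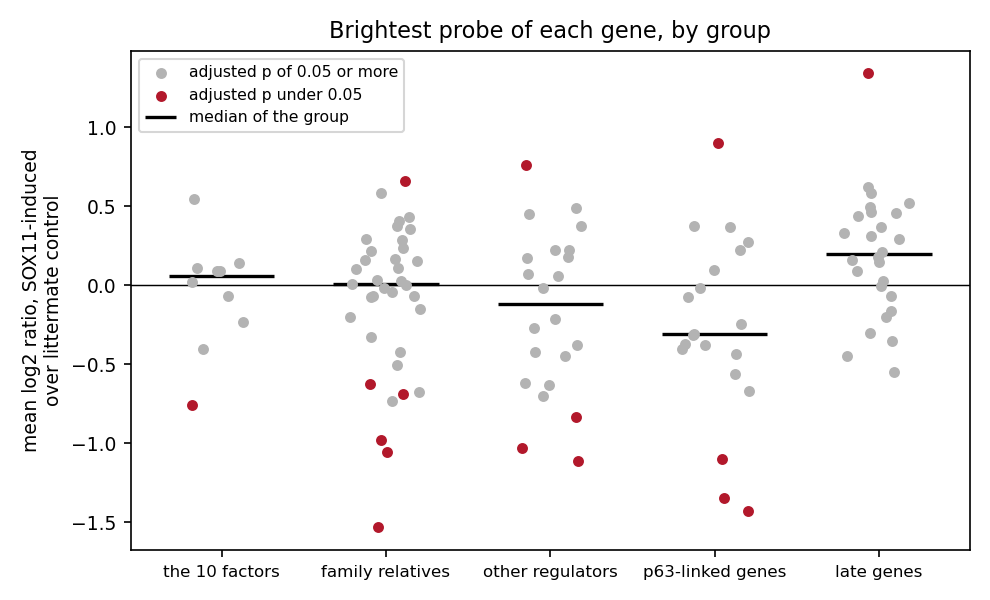
Mean log2 ratio of SOX11-induced over control epidermis (y axis) for the brightest probe of each gene in 5 groups (x axis), with red points for an adjusted p under 0.05 and a line at each group's median. Medians lie between -0.31 for p63-linked genes and 0.19 for late genes, and Gata3 is the single red point among the 10 factors.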

How the data were processed

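Each array has a scanner file from Agilent Feature Extraction 10.7.3.1. It gives, per the file headers, intensity values of every spot and its background without normalization, and processed signals that the software had corrected and dye-normalized. The series table holds log2 ratios that the authors deposited. Median spot brightness with normexp, offset 16, and loess gave these ratios again (Pearson r of 1 on both arrays over 55681 probes, largest differences 0.00342 and 0.00466), without the ComBat step that the study's methods name. Both arrays shared a slide and scan per the headers, so neither could act as a batch.

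Mean spot brightness was corrected by normexp (offset 16) and loess in R 4.3.3 with limma 3.58.1. Control spots and 194 and 186 flagged spots were left out, spots of a probe averaged, and an intercept fitted to the paired ratios (eBayes, Benjamini-Hochberg over 55676 probes). Per-sample brightness was taken after loess and Aquantile scaling. The fit was run on simulated ratios drawn from its own prior, without dye or pair effects, as a check of the code alone.

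Probes above background were those marked well above background by the scanner in at least 1 channel on both arrays. The factors, lists and naming rule were chosen with earlier results of these data known. Named beside the factors were at most 6 genes per list that passed an adjusted p of 0.05, by size of change, and 16 genes whatever their values, 1 of which is not reported here. The alternatives are listed in the closing section. Names are those in the array files.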

Additional observations from a re-analysis of the deposited data

How the results depend on the processing

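The alternatives were an offset of 50, median spot brightness, median centring, processed signals, the series table, dim probes left out, flagged spots kept, an intensity trend, unpaired channels, and each pair alone. At the threshold of log2 1.5, 0 of the factors' 15 probes were called under any of the first 9. All probes called numbered 252 as reported, 756 with median centring (98.7% higher, in place of 81%), 0 with processed signals (9764 at an unadjusted p under 0.05) and 177 to 253 otherwise. At an adjusted p under 0.05, the factors' probes that passed numbered 1 as reported, 4 with an offset of 50 (Trp63 probe 3, Gata3, Grhl3 and Cebpa), 3 with an intensity trend (Trp63 probe 3, Gata3 and Grhl3), 9 with median centring, and 0 with median spot brightness, the series table, processed signals (5 at an unadjusted p under 0.05) or without the replicate block, that is without the pairing of littermates. Of the family relatives, other regulators, p63-linked and late genes, 15 passed as reported, 34 with an offset of 50, 36 with an intensity trend, 55 with median centring, 0 with processed signals and 3 without the replicate block. Median centring, which raised the median of probes above background by 0.47, changed 11 means from negative to positive, 9 of which stayed below that median (not Krt14 or the second Grhl2 probe): Trp63 probes 1 and 4 (0.43 and 0.41), the second Grhl2 probe (0.57), the second Tfap2a probe (0.41), Cebpa (0.23), Tfap2c (0.0041), Krt5 (0.43), Krt14 (0.51), Dsg1a (0.29), Cebpd (0.15) and Zfp750 (0.37). Processed signals turned Ovol1 to -0.029. The cause was not tested. With either pair alone, the values are the single ratios given in the report. Signal over background limits the probes of Sox11 and 11 of the 36 family relatives, and the common dye orientation limits every ratio.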

Other observations

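Of the 6 probes with a run of 5 or more CAG triplets, which include Trp63 probe 3, 2 passed an adjusted p of 0.05 in limma. Pif1, a DNA helicase, had log2 ratios of 0.85 and 0.90 (adjusted p = 0.0126), and Git2, an adaptor of focal adhesions, had 0.71 and 0.71 (adjusted p = 0.0308). Arhgap17 (0.62), Crebbp (0.42) and BC051142 (0.32) did not pass. Of the 5 probes with a CTG run, 0 passed in limma, adjusted or unadjusted, and their means lay between 0.10 and 0.20.

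Marker lists of other cell types were measured beside the factors. Of 10 fibroblast markers, 6 were above background, and 3 passed, named here after their values were seen. Fbln1 was at 0.62 on the log2 scale (adjusted p = 0.0499) and Dcn at -0.79 (adjusted p = 0.0260), and Thy1 is given beside Gata3. The median of the list was 0.37. None of 8 melanocyte markers passed in limma (2 at an unadjusted p under 0.05, median log2 ratio 0.23), and all 8 were higher in pair 1. Of 7 sebocyte markers, Pparg passed at -0.63 (adjusted p = 0.0488, chosen after its value was seen). None of 5 endothelial markers passed in limma, 0 of them at an unadjusted p under 0.05, and 2 of the 5 were above background. Among the 8 keratinocyte markers, Krt15 passed, as given beside Gata3, and the median of the list was 0.24.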
